A study of Homo sapiens with 6 samples.

Results

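Mitosis is run by a small set of kinases, a checkpoint and the machinery that holds and pulls chromosomes. Cyclin B bound to the kinase CDK1 starts it, the Aurora and Polo kinases shape the spindle, and kinetochores, built on centromeres marked by the histone variant CENPA, tie each chromosome to microtubules. The spindle checkpoint holds the ubiquitin ligase APC/C in check until every kinetochore is attached, after which CDC20 activates it and separase cuts the sister chromatids apart. Most of these genes are transcribed late in the cell cycle under the MuvB complex with B-MYB and FOXM1, so their summed level in a culture is widely read as a sign of proliferation.

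The mitosis, spindle checkpoint and centromere genes described here are 45 genes named by symbol, taken from a table of 15761 genes, and all of them were found there (kinesins other than CENPE were left out). They were measured by RNA sequencing in SK-MES-1, an established line of lung squamous carcinoma cells labelled as wild type. The exosome group was grown for 72 h in complete medium with 20 µg/ml of vesicles released by lung fibroblasts of idiopathic pulmonary fibrosis, a scarring disease of the lung, and the control group was kept in parallel with no vesicles added. Each group had 3 libraries of total RNA from 1 cell line, no group received vesicles of another source, and the comparison asks how the vesicles alter transcript levels of the tumour cells. Nothing in the labels tells whether the libraries came from independent cultures, and p-values therefore reflect library-to-library spread that may be technical.

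Libraries held 13038688 to 13334508 counts in the exosome group and 11346639 to 12924251 in the control group, so that 1 CPM (the count scaled to the library total) stood for 11.3 to 13.3 reads. Library 3 of each group lay apart from libraries 1 and 2: the chi-square per gene was 7.41 and 9.71 against exosome libraries 2 and 1, which differed from each other by 3.18, and 12.1 and 16.2 against control libraries 2 and 1, which differed by 2.31. The epithelial keratins KRT8 and KRT18 were abundant and lower with exosomes (1944 ± 86.1 and 804 ± 10.9 CPM in exosome libraries, 2340 ± 86.5 and 997 ± 56.1 CPM in control libraries; mean ± SD, n = 3 here and below; log2 fold change -0.35 and -0.39, adjusted p = 0.00054 and 0.000174). The adhesion gene CDH1 was lower too (20.7 ± 0.927 CPM in exosome and 51.5 ± 2.63 CPM in control libraries, log2 fold change -1.39, adjusted p = 7.89e-10), while EPCAM had 61.9 ± 3.05 and 68.1 ± 6.80 CPM. The squamous keratins KRT5, KRT6A and KRT14 each averaged under 1 CPM in either group, and the squamous transcription factors were low, with TP63 at 2.28 CPM in exosome and 1.51 CPM in control libraries and SOX2 at 5.57 and 4.34 CPM. Of 6 fibroblast markers 4 were in the table, with a summed level of 6.38 to 7.50 CPM in exosome and 7.78 to 8.46 CPM in control libraries, nearly all of it PDGFRB. PDGFRA, COL3A1 and THY1 each averaged under 1 CPM in either group.

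Promoters of the mitosis genes carried the letters typical of late cell cycle genes whether the gene, as counted, rose, fell or was not called. RefSeq promoter windows (GRCh38.p14, 250 bases before to 50 after the start of transcription) were at hand for 36 of the 45 genes. The CHR element, the site of the MuvB complex, was searched as TTTGAA and the CCAAT box as CCAAT, each on both strands. A CHR element was found in 25 of 36 windows (69.4%) against 15.4% of all 27305 promoters, and a CCAAT box in 28 (77.8%) against 35.7%. Among genes that rose with exosomes, 10 of 15 windows held the CHR letters and 12 the CCAAT letters, and among genes that fell 5 of 6 and 4 of 6. The E2F-type letters GCGGGAA were found in 5 of 36 windows (13.9%) against 6.56% of all promoters. A match is a description of the letters and not a bound site, and the search letters of the CHR element and the CCAAT box do not contain each other.

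Shown here are the 120 bases before the start, 5′ to 3′ on the gene's strand. As counted, the first 5 genes rose and the last 3 fell. With the GC and length trend removed, the first 5 stayed higher, ANLN stayed lower, HMMR was not called and ASPM was higher. The genes shown were picked from those with a CHR match in this stretch. CCNB2, INCENP and BUB1B, which also rose, hold such a match too and are not shown. Capitals mark CHR letters (TTTGAA, or TTCAAA on the other strand) and CCAAT letters (CCAAT, or ATTGG on the other strand).
PLK1 (chr16:23678769-23678888, plus strand): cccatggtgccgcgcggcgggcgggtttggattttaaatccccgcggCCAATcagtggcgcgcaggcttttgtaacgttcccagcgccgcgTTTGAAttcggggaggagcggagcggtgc
CDC20 (chr1:43358861-43358980, plus strand): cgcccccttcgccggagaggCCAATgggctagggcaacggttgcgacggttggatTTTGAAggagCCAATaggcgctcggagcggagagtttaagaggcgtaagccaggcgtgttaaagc
CDCA8 (chr1:37692396-37692515, plus strand): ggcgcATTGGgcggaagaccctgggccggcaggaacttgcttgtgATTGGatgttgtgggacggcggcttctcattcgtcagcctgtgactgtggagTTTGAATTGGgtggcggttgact
CENPA (chr2:26785936-26786055, plus strand): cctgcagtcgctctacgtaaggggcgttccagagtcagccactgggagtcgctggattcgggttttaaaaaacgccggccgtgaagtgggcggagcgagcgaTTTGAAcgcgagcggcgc
ESPL1 (chr12:53268179-53268298, plus strand): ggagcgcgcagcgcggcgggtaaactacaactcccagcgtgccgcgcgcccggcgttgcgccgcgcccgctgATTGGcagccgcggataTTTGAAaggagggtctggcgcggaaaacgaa
ANLN (chr7:36389742-36389861, plus strand): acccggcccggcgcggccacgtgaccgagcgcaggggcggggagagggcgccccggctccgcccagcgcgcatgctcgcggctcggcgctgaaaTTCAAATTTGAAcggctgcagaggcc
HMMR (chr5:163460512-163460631, plus strand): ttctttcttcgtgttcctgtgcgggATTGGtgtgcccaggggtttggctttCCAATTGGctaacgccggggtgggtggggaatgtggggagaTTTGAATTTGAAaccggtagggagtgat
ASPM (chr1:197146670-197146789, minus strand): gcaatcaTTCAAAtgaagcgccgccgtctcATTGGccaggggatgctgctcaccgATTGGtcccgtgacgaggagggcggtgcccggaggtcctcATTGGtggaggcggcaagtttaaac
The CHR and CCAAT letters share a base in CDCA8, CCAAT matches on the opposite strands share bases in HMMR, and HMMR and ANLN each hold adjoining CHR matches.

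More mitosis genes rose than fell with exosomes, and the rises were led by kinase AURKB, centromere histone CENPA, and the APC/C partners UBE2C and CDC20. Of 43 genes tested, 19 were higher and 7 lower at an adjusted p under 0.05 (edgeR quasi-likelihood test, adjusted over 12449 genes), where 25.6% of all tested genes were higher and 26.1% lower. The corresponding shares of the mitosis genes were 44.2% and 16.3%. Their median log2 fold change of exosome over control was 0.17, against -0.0042 over all tested genes, and the range was -0.47 to 1.06. AURKB was the single member called at 2-fold or more.

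The summed level of the 45 genes was 6496 ± 149 CPM in exosome and 5978 ± 41.6 CPM in control libraries. CPM is scaled to library totals and not by TMM factors, the scaling of the edgeR test. With library totals the median log2 fold change of members was 0.25, against 0.17 with TMM factors. The sizes of differences and the overlaps given here in CPM therefore hold for library totals, and the sum was not taken with TMM factors. Exosome libraries 1 to 3 had 6407, 6413 and 6668 CPM and control libraries 1 to 3 had 5935, 6019 and 5980 CPM, so that the groups did not overlap. ANLN, TOP2A, CENPF, CDC25B and MKI67 made up 50.5% of this sum in exosome and 54.9% in control libraries, and their own sum was 3283 CPM in exosome and 3282 CPM in control libraries. Within these 5, changes in opposite directions cancelled: CDC25B had 744 CPM in exosome and 597 CPM in control libraries and MKI67 had 705 and 593 CPM, while ANLN had 605 and 790 CPM. In bulk RNA, a larger share of cells in mitosis and more of a transcript per cell cannot be told apart.

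Groups did not overlap in CPM, with exosome libraries the higher ones, in 27 of the 43 genes (35.0% of all tested genes), and with exosome libraries the lower ones in 4 (24.5% of all tested genes). Under 16 other fits of the same data, 11 of the 19 rises passed in every one: AURKA, AURKB, INCENP, CDCA8, PLK1, CDC20, CENPA, CENPW, PTTG1, ESPL1 and UBE2C. Of the 7 falls, those of TTK and ANLN passed in every fit. Scaled by library totals in place of TMM factors, 23 mitosis genes were higher and 4 lower. Without library 3 of each group, 18 were higher and 10 lower. In the authors' deposited table, 18 members had an adjusted p under 0.05 with a positive log2 fold change and 6 with a negative one. The DESeq2 fit of the same reads gave the same 18 and 6, so the deposited values are not a separate check.

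**Figure D1:**
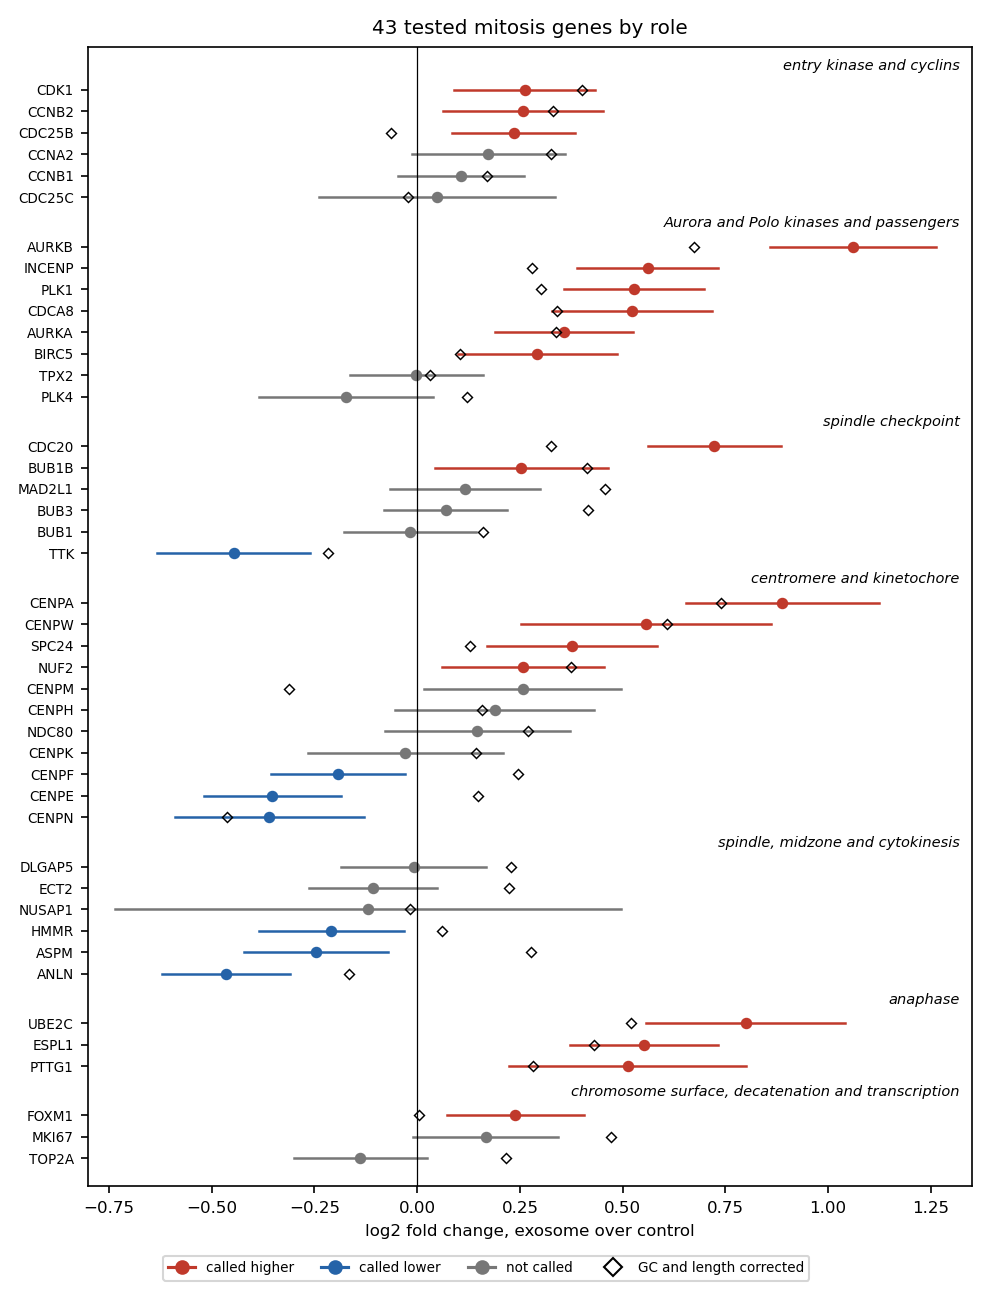
The log2 fold change of exosome over control (horizontal axis) of the 43 tested mitosis genes, grouped by role. Filled circles with lines are the edgeR estimate and its 95% confidence interval, coloured by call, and open diamonds are the estimate with the GC and length trend removed. AURKB lies farthest right at 1.06, and ANLN and TTK lie farthest left at -0.47 and -0.45.

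The size and direction of the changes followed the base composition of the transcripts, as they did over all tested genes. The longest annotated transcript had a median GC of 51.4% and 2315 bases in members called higher, 40.03% and 4787 bases in members called lower, and 42.1% and 2973 bases in members not called. Of 12 members with a GC content of 50% or more, 11 rose and 0 fell. Of 12 members under 40%, 3 rose and 3 fell, and of 19 between these limits 5 rose and 4 fell. Across the 43 members, which share libraries and are not replicates, the Spearman correlation of log2 fold change with GC content was 0.62 and with length -0.52, as against 0.62 and -0.39 over all tested genes.

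With a smooth trend on GC content and length removed from each library, 27 members were higher and 3 lower, where 18.2% of all tested genes were higher and 17.3% lower. The median over members was then 0.24, against -0.0032 over all tested genes. The corrected log2 fold change was above 0 in 36 of 43 members, against 49.7% of all tested genes. Of the rises, 15 stayed and 4 ended (CDC25B, BIRC5, SPC24 and FOXM1). Of the falls, 3 stayed (TTK, ANLN and CENPN), those of CENPE and HMMR ended, and CENPF and ASPM became higher. A further 10 members, not called in the edgeR test above, were called higher with the trend removed: CCNA2, CCNB1, BUB1, BUB3, MAD2L1, NDC80, ECT2, DLGAP5, TOP2A and MKI67. Of these, CCNA2, CCNB1 and MKI67 were also called higher with library totals. Whether the trend arose in the cells or in the making of the libraries was not tested, and values with it removed are called corrected here.

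**Figure D2:**
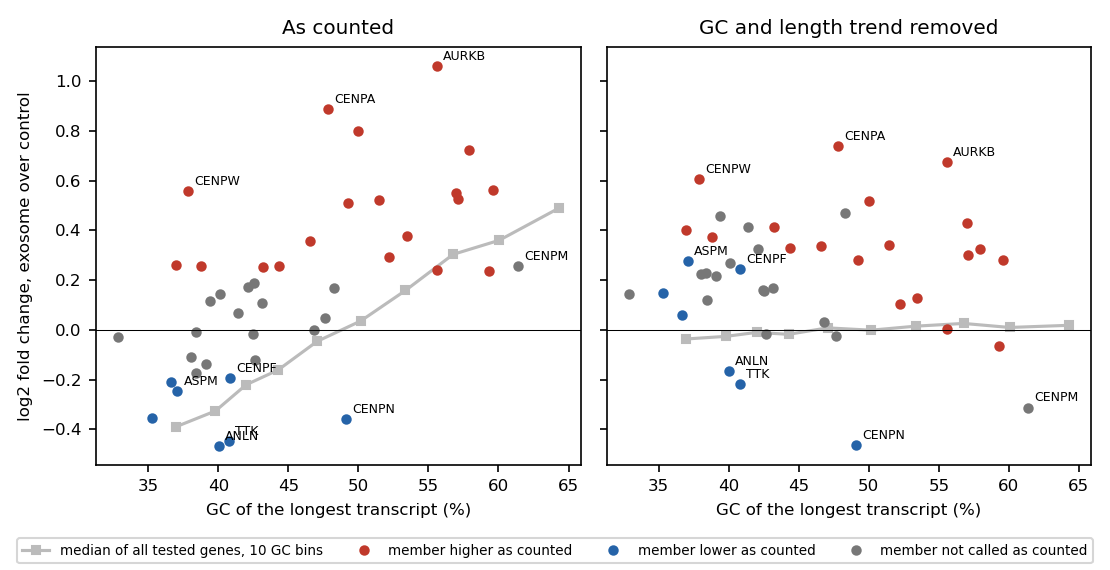
The log2 fold change of exosome over control against the GC content of the longest transcript for the 43 tested members, as counted on the left and corrected on the right. Points are coloured by the call as counted, and grey squares give the median of all tested genes in 10 bins of GC content, from -0.39 to 0.49 on the left. Points lie above 0 for 28 of 43 members on the left and for 36 on the right, where CENPN is lowest at -0.46.

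Of 6 genes of mitotic entry, 3 were called higher (CDK1, CCNB2 and the phosphatase CDC25B) and 0 lower. Over all tested genes, 25.6% were higher and 26.1% lower. CDK1, the mitotic kinase, had 101, 113 and 108 CPM in exosome libraries, against 77.4, 84.6 and 91.2 CPM in control libraries. The groups did not overlap, and the log2 fold change was 0.26 ± 0.083 (SE; adjusted p = 0.0117; corrected 0.40, adjusted p = 0.000167). CCNB2, one of its B-type cyclins, had 53.3, 50.4 and 55.9 CPM in exosome and 42.4, 44.3 and 39.4 CPM in control libraries (0.26 ± 0.094, adjusted p = 0.0256; corrected 0.33).
CCNB1, the more abundant B-type cyclin, had 221, 212 and 219 CPM against 192, 197 and 183 CPM in control, and did not pass (0.11, 95% confidence interval -0.05 to 0.26, adjusted p = 0.239; corrected 0.17, adjusted p = 0.0232). Cyclin A2 (CCNA2) did not pass either (0.17, interval -0.01 to 0.36, adjusted p = 0.112; corrected 0.32, adjusted p = 0.00292), although it passed without control library 3 (adjusted p = 0.0428). With library totals, CCNB1 and CCNA2 both passed (0.19 and 0.25, adjusted p = 0.033 and 0.0232). The phosphatase CDC25B, which activates CDK1, rose as counted (0.23, adjusted p = 0.00963) and had a corrected value of -0.063 (adjusted p = 0.421), whereas its relative CDC25C was at 0.048 (interval -0.24 to 0.33). CDK1 missed the threshold without exosome library 2 (adjusted p = 0.0717) or control library 1 (adjusted p = 0.0684). CCNB2 missed it without exosome library 1 or 3 or control library 3 (adjusted p = 0.0541, 0.0782 and 0.0601), and CDC25B without exosome library 1 (adjusted p = 0.0509).

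All 4 genes of the chromosomal passenger complex, which corrects faulty attachments and guides the end of division, were higher, as were 25.6% of all tested genes. AURKB (Aurora B, its kinase; chromosome 17 from 8204733 to 8210600, GRCh38) had 97.7, 99.1 and 86.8 CPM in exosome libraries, against 47.5, 43.9 and 37.0 CPM in control libraries. Every exosome library was above every control library, a 2.09-fold rise (log2 fold change 1.06 ± 0.097, adjusted p = 3.19e-08; corrected 0.67, adjusted p = 4.39e-07). INCENP, the scaffold on which the kinase sits (chromosome 11 from 62123973 to 62153163), had 104, 92.6 and 97.2 CPM in exosome and 64.6, 60.4 and 63.2 CPM in control libraries (0.56 ± 0.083, adjusted p = 1.25e-05; corrected 0.28, adjusted p = 0.00373). CDCA8, which encodes borealin, rose by 0.52 (adjusted p = 9.72e-05; corrected 0.34, adjusted p = 0.0026).
BIRC5, which encodes survivin, rose least (0.29, adjusted p = 0.0121), with a corrected value of 0.10 (adjusted p = 0.371), and it missed the threshold without exosome library 1 (adjusted p = 0.0716) or control library 2 (adjusted p = 0.0764).

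The Aurora A arm of spindle assembly moved unevenly. AURKA, which drives spindle pole maturation, rose: its exosome values of 103, 97.2 and 102 CPM all lay above the control values of 69.7, 78.2 and 75.2 CPM (0.36 ± 0.081, adjusted p = 0.000889; corrected 0.34). TPX2, the protein that activates Aurora A on microtubules, had 310.4, 288 and 334 CPM against 282, 293 and 307 CPM in control, with overlapping groups and a log2 fold change of -0.0019 (interval -0.16 to 0.16). PLK1, the Polo kinase of entry, spindle and cytokinesis (chromosome 16 from 23677656 to 23690367), rose 1.44-fold, with 162, 151 and 139 CPM in exosome and 101, 105 and 90.8 CPM in control libraries (0.53 ± 0.082, adjusted p = 2.2e-05; corrected 0.30, adjusted p = 0.000797). Genes on the opposite strand overlap 12.5% of its exonic bases. PLK4, which licenses centriole duplication, was at -0.17 (interval -0.38 to 0.04; corrected 0.12, adjusted p = 0.320).

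Among the spindle checkpoint genes, 2 of 6 rose and 1 fell. At this size these shares do not stand apart from the 25.6% and 26.1% of all tested genes. CDC20, the APC/C activator on which the checkpoint acts (chromosome 1 from 43358955 to 43363203), had 145, 147 and 131 CPM in exosome and 83.2, 80.1 and 78.6 CPM in control libraries. The groups were far apart, with a 1.65-fold rise (0.72 ± 0.078, adjusted p = 3.13e-07; corrected 0.32, adjusted p = 0.000329). TTK, the kinase MPS1 that starts checkpoint signalling (chromosome 6 from 80003887 to 80042527), fell to 44.8, 46.7 and 50.8 CPM with exosomes, against 58.6, 63.4 and 61.6 CPM in control. Its log2 fold change was -0.45 ± 0.090 (adjusted p = 0.000315; corrected -0.22, adjusted p = 0.0243).
BUB1B, which encodes the inhibitor BUBR1, had 69.9, 73.8 and 77.5 CPM against 64.8, 61.8 and 48.7 CPM in control (0.25 ± 0.10, adjusted p = 0.0406; corrected 0.41). Control library 3 was the lowest, and the call ended without it (adjusted p = 0.179), without exosome library 2 or 3 (adjusted p = 0.0843 and 0.140) and in DESeq2 (adjusted p = 0.0526). Another gene on the same strand, BUB1B-PAK6, overlaps 10.2% of its exonic bases.

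The other checkpoint components were called only after correction. BUB3, a binding partner of BUB1 and BUBR1, had 195, 199 and 196 CPM in exosome libraries and 175, 178 and 177 CPM in control libraries. These values did not overlap, but relative to the TMM scaling the log2 fold change was 0.069 (interval -0.08 to 0.22; corrected 0.41, adjusted p = 1.65e-05). MAD2L1, the protein MAD2 that captures CDC20, was at 0.12 (interval -0.07 to 0.30; corrected 0.46, adjusted p = 6.52e-05), and BUB1 at -0.017 (interval -0.18 to 0.14; corrected 0.16, adjusted p = 0.0477). The longest annotated transcripts of BUB3 and MAD2L1 have 7828 and 5468 bases, against a median of 3723 over all tested genes. Their GC content is 41.4% and 39.4%.

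**Figure D3:**
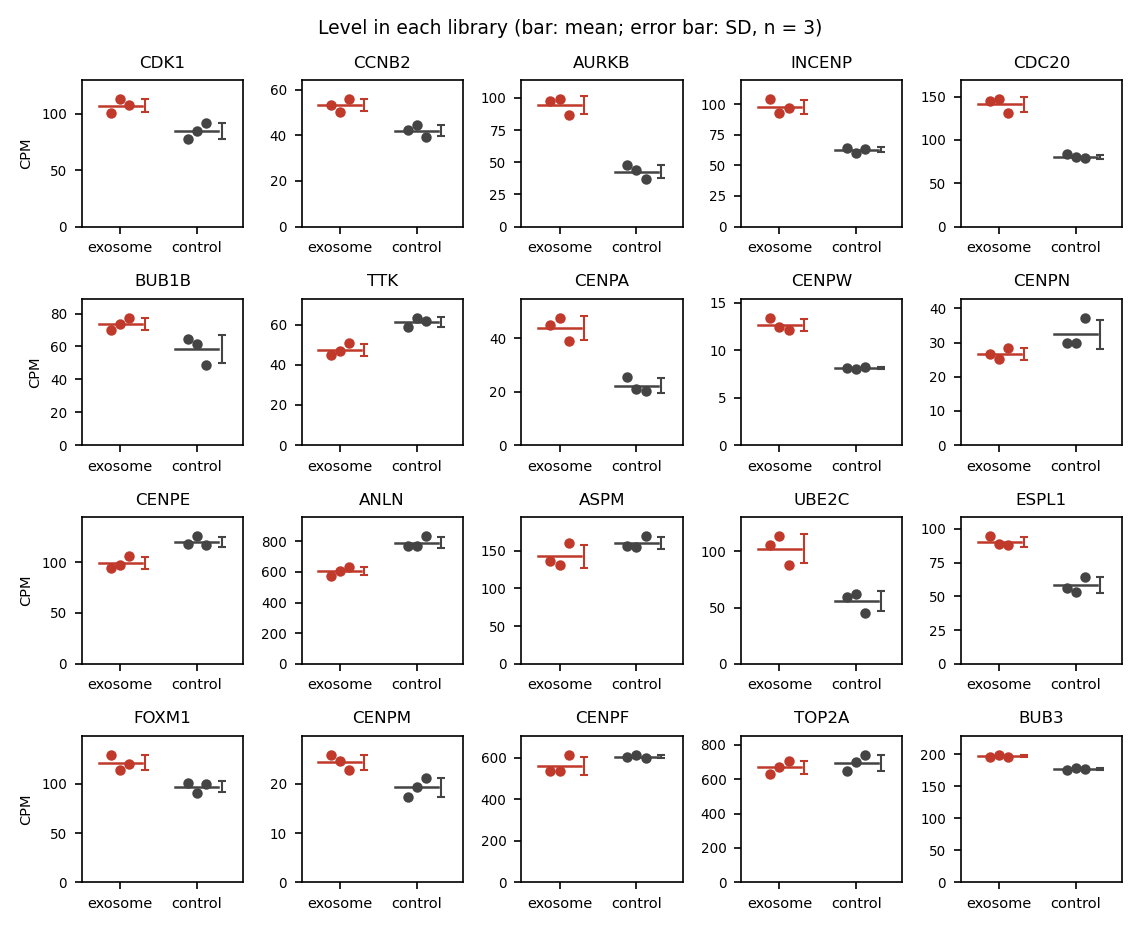
CPM in each library for the 20 members with the largest called changes of each role or the largest shift under correction, with exosome libraries left of control libraries in each panel, a line at the mean and the SD beside it. AURKB, CENPA, CDC20 and UBE2C show the widest gaps between groups, while the libraries of ASPM, CENPF and TOP2A overlap.

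Of 11 tested centromere and kinetochore genes, 4 were higher and 3 lower, shares that at this size do not stand apart from the 25.6% and 26.1% of all tested genes. CENPA, the histone H3 variant that marks the centromere (chromosome 2 from 26764289 to 26801067), had 44.9, 47.8 and 39.0 CPM in exosome libraries against 25.5, 21.2 and 20.3 CPM in control libraries. Its 1.85-fold rise (0.89 ± 0.11, adjusted p = 2.29e-06) was the largest after correction among all 43 members (0.74, adjusted p = 4.7e-06). CENPW, a histone-fold subunit of the inner kinetochore, had 13.4, 12.4 and 12.1 CPM against 8.10, 8.02 and 8.28 CPM in control (0.56 ± 0.15, adjusted p = 0.00309; corrected 0.61, adjusted p = 0.00193). Its transcript has a low GC content (37.9%) and, at 750 bases, is the shortest of the tested members.
CENPN, which reads the CENPA nucleosome, was lower, with 26.6, 25.2 and 28.5 CPM in exosome and 30.0, 30.0 and 37.3 CPM in control libraries (-0.36 ± 0.11, adjusted p = 0.00978; corrected -0.46, adjusted p = 0.00182). Control library 3 stood highest, and the call ended without it (adjusted p = 0.0815) or without exosome library 2 (adjusted p = 0.0614). Genes on the opposite strand overlap 22.8% of the exonic bases of CENPN, and no source used here tells whether counting was stranded.

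CENPE, a kinesin that carries chromosomes to the spindle equator (chromosome 4 from 103105806 to 103198409), fell to 94.5, 97.4 and 106 CPM with exosomes, against 118, 125 and 117 CPM in control. Its log2 fold change of -0.35 ± 0.080 (adjusted p = 0.00094) had a corrected value of 0.15 (adjusted p = 0.0821), for a transcript of 35.3% GC and 8612 bases. CENPF, a large protein of the outer kinetochore, had 535, 536 and 613 CPM in exosome and 604, 614 and 602 CPM in control libraries. The groups overlapped through exosome library 3, and the fall (-0.19 ± 0.078, adjusted p = 0.0441) became a rise after correction (0.24, adjusted p = 0.00347). CENPF missed the threshold without exosome library 1 or 2 (adjusted p = 0.177 and 0.213), without control library 1 or 2 (adjusted p = 0.131 and 0.152), with library totals (adjusted p = 0.224), RLE factors (adjusted p = 0.0529) and no filter on low counts (adjusted p = 0.0656).
CENPM, an inner kinetochore subunit with the highest GC content of all members (61.4%), had 25.8, 24.5 and 22.7 CPM against 17.4, 19.3 and 21.1 CPM in control. It did not pass in either direction (0.26, adjusted p = 0.0675; corrected -0.31, adjusted p = 0.0537), although it passed as higher without control library 3 (0.34, adjusted p = 0.0274) and with library totals (0.34, adjusted p = 0.0207), and as lower with the correction and a replicate block (-0.30, adjusted p = 0.0335).

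The NDC80 complex, the arm that grips the microtubule, was measured through 3 of its 4 subunits. SPC24 had 37.4, 38.0 and 36.7 CPM against 27.1, 25.6 and 28.9 CPM in control (0.38, adjusted p = 0.00316; corrected 0.13, adjusted p = 0.298). NUF2 rose by 0.26 (adjusted p = 0.0278; corrected 0.37, adjusted p = 0.000753), a call that ended without exosome library 2 or 3 or control library 3 (adjusted p = 0.0849, 0.0809 and 0.0947). NDC80 itself was at 0.15 (interval -0.08 to 0.37; corrected 0.27, adjusted p = 0.0301). SPC25 had 0 to 5 reads in every library and was not tested. Of the remaining subunits, CENPH was at 0.19 (interval -0.05 to 0.43) and CENPK at -0.029 (interval -0.27 to 0.21), and neither passed after correction (adjusted p = 0.274 and 0.286).

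Genes of the spindle, midzone and cytokinesis were the role with more falls than rises as counted, with 3 of 6 tested genes lower and 0 higher. Over all tested genes, 26.1% were lower and 25.6% higher. After correction 1 gene of this role was lower and 3 were higher (corrected median 0.14). ANLN encodes anillin, the scaffold of the contractile ring (chromosome 7 from 36389806 to 36453791). It had 577, 606 and 633 CPM in exosome libraries, against 769, 769 and 833 CPM in control libraries. Every exosome library was below every control library (-0.47 ± 0.075, adjusted p = 3.13e-05; corrected -0.17, adjusted p = 0.0239). ASPM, a spindle pole protein known for its part in brain growth, had 136, 131 and 159.8 CPM against 156, 155 and 169 CPM in control (-0.25 ± 0.085, adjusted p = 0.019). Exosome library 3 overlapped the control range, and the corrected value was 0.28 (adjusted p = 0.00117).
ASPM missed the threshold without exosome library 1 or 2 (adjusted p = 0.0797 and 0.145) and with library totals (adjusted p = 0.101). HMMR, a microtubule-binding protein of the spindle, was lower by a log2 fold change of -0.21 (adjusted p = 0.0432; corrected 0.060, adjusted p = 0.522). That call ended in DESeq2 (adjusted p = 0.0688), with RLE factors (adjusted p = 0.0502), library totals (adjusted p = 0.206) or no filter on low counts (adjusted p = 0.0609), and without exosome library 1 or 2 or control library 1 or 2 (adjusted p = 0.0719 to 0.269).

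ECT2, the exchange factor that switches on RhoA at the cleavage site, was at -0.11 (interval -0.26 to 0.05; corrected 0.22, adjusted p = 0.00568), and DLGAP5, which encodes the spindle protein HURP, at -0.0089 (interval -0.19 to 0.17; corrected 0.23, adjusted p = 0.014). NUSAP1 and PRC1, microtubule bundlers of the spindle and midzone, had very few reads, with 22 to 29 and 2 to 5 per library. In GENCODE 29, another gene on the same strand overlaps 62.2% of the exonic bases of NUSAP1, and other genes, mostly on the same strand, overlap 58.4% of those of PRC1. PRC1 was below the filter on low counts and not tested, and the interval of NUSAP1 ran from -0.74 to 0.50, so a difference was not detectable at these counts.

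The 3 genes of anaphase onset all rose, where 25.6% of all tested genes did. UBE2C, the ubiquitin-conjugating enzyme of the APC/C (chromosome 20 from 45812576 to 45816957), had 106, 113 and 87.7 CPM in exosome and 59.1, 61.9 and 45.3 CPM in control libraries. Library 3 was the lowest in each group, and the groups did not overlap (0.80 ± 0.11, a 1.74-fold rise, adjusted p = 2.65e-05; corrected 0.52, adjusted p = 1.98e-05). ESPL1, which encodes separase (chromosome 12 from 53268299 to 53293643), had 94.4, 88.4 and 87.8 CPM against 56.4, 53.3 and 64.6 CPM in control (0.55 ± 0.087, adjusted p = 2.44e-05; corrected 0.43, adjusted p = 9.47e-05). PTTG1, which encodes securin, the inhibitor of separase, had 54.3, 63.0 and 53.8 CPM against 42.0, 43.1 and 28.3 CPM in control (0.51 ± 0.14, adjusted p = 0.00531; corrected 0.28, adjusted p = 0.0321). Separase and its inhibitor were thus both higher.

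Of the chromosome surface, decatenation and transcription genes, FOXM1 rose and the proliferation markers MKI67 and TOP2A did not pass. FOXM1, the transcription factor of late cell cycle genes (chromosome 12 from 2857681 to 2877155), had 129, 114 and 120.1 CPM in exosome and 101, 90.6 and 99.4 CPM in control libraries (0.24 ± 0.081, adjusted p = 0.0169; corrected 0.0034, adjusted p = 0.973). It missed the threshold without exosome library 1 (adjusted p = 0.0822) or control library 2 (adjusted p = 0.0959). A gene on the opposite strand overlaps 15.9% of its exonic bases. MKI67, which encodes Ki-67, had 670.3, 682 and 762 CPM against 636, 611 and 532 CPM in control, groups that did not overlap (0.17, interval -0.01 to 0.34, adjusted p = 0.106; corrected 0.47, adjusted p = 0.000802; 0.25 with library totals, adjusted p = 0.0149). TOP2A, which untangles chromosomes, had 629.9, 668 and 706 CPM in exosome and 646, 699 and 740.0 CPM in control libraries, with overlap (-0.14, interval -0.30 to 0.02; corrected 0.22, adjusted p = 0.00494). TOP2A passed as lower without exosome library 3 (-0.19, adjusted p = 0.0317).

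Per length, in the authors' FPKM, the members that were not near 0 spanned 6.88 to 188 FPKM in exosome and 6.28 to 165 FPKM in control libraries. CDC25B (188 ± 8.01 FPKM), ANLN (126 ± 5.90) and TOP2A (116 ± 6.64) led in exosome libraries, against ANLN (165 ± 7.67), CDC25B (151 ± 0.806) and TOP2A (121 ± 8.17) in control libraries. Among the kinases, AURKB had 71.8 ± 5.13 FPKM in exosome and 32.5 ± 4.05 FPKM in control libraries, near PLK1 (67.8 ± 5.12 and 44.5 ± 3.31 FPKM) in the exosome group. AURKA had 36.9 ± 1.12 FPKM in exosome and 27.2 ± 1.57 FPKM in control libraries, so the level of AURKB was above that of AURKA by more in the exosome group. Within the passenger complex, INCENP (24.7 ± 1.48 FPKM in exosome, 15.8 ± 0.545 FPKM in control), BIRC5 (23.0 ± 1.86 and 17.8 ± 1.92 FPKM) and CDCA8 (22.4 ± 1.21 and 14.7 ± 1.06 FPKM) lay close together, below AURKB. At the low end, CDC25C had 6.88 ± 1.10 FPKM in exosome and 6.28 ± 0.661 FPKM in control libraries, a difference smaller than either SD, and PLK4 had 7.93 ± 0.380 and 8.45 ± 0.503 FPKM. No source used here gives the lengths behind the FPKM values.

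**Figure D4:**
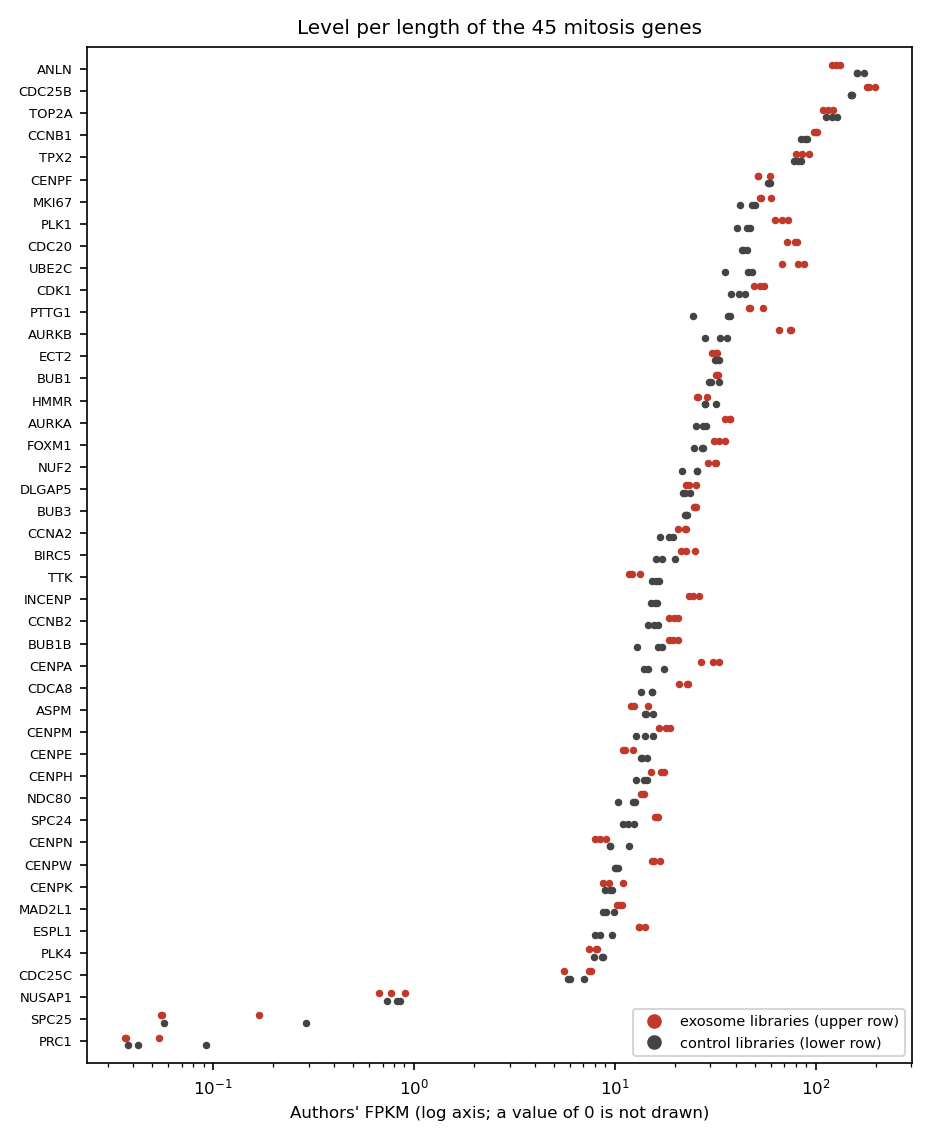
The authors' FPKM (log axis) in each library for all 45 members, ordered by the mean of the control libraries, with exosome libraries on the upper line of each gene and control libraries on the lower. AURKB, CENPA and UBE2C stand clear of their control libraries, ANLN and TTK lie to the left of theirs, and NUSAP1, SPC25 and PRC1 lie far below the rest.

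Counts of other genes of the same machinery stand beside 25.6% higher and 26.1% lower over all tested genes (corrected 18.2% and 17.3%), and the shares of the kinetochore and APC/C lists were near these. Corrected counts in parentheses give the genes called higher and then those called lower. Of 10 mitotic entry regulators and further mitotic kinases, 5 rose and 0 fell (median 0.30; corrected 5 and 0). PKMYT1, the kinase that holds CDK1 inactive, had 39.8 ± 6.15 CPM in exosome and 18.7 ± 2.46 CPM in control libraries (log2 fold change 1.005, corrected 0.44). CKS1B (0.53, corrected 0.46), a CDK subunit, and the histone kinase HASPIN (0.63, corrected 0.40) rose as well, as did GTSE1 (0.47, corrected 0.24), a microtubule-binding protein of G2 phase.
Of 27 tested kinetochore and centromere genes beyond the members, 7 rose and 8 fell (median -0.060; corrected 5 and 4). ZWINT, a linker of the outer kinetochore, had 84.8 ± 7.81 CPM in exosome and 39.1 ± 6.77 CPM in control libraries (1.03, corrected 0.91). The inner kinetochore gene CENPT (0.82, corrected 0.47) and HJURP, the chaperone that loads CENPA (0.51, corrected 0.46), rose too, while SKA2 fell (-0.48, corrected -0.25). CENPA and its chaperone were thus both higher.

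Of 17 APC/C genes and regulators 4 rose and 4 fell (median -0.033; corrected 4 and 1). UBE2S, the enzyme that extends ubiquitin chains after UBE2C, had 182 ± 27.6 CPM in exosome and 84.4 ± 3.75 CPM in control libraries (1.02, adjusted p = 3.18e-08; corrected 0.71). The activator FZR1 rose (0.50) and the subunits CDC27 (-0.41) and ANAPC1 (-0.34) fell, none of which passed after correction (adjusted p = 0.119, 0.984 and 0.232). Of 14 tested MuvB, MYB and E2F regulators, 3 rose and 5 fell (median 0.027; corrected 4 and 1). MYBL2, which encodes B-MYB, had 286 ± 18.2 CPM in exosome and 168 ± 9.28 CPM in control libraries (0.68, corrected 0.29). E2F4 rose (0.56, corrected 0.17) and E2F3 fell (-0.50, corrected -0.36), while the rise of E2F1 (0.45) was not seen after correction (-0.0083, adjusted p = 0.945).
Cohesin and its protectors were mostly lower as counted, with 9 of 12 lower and 2 higher (median -0.32), against 2 lower and 2 higher after correction. NIPBL, the cohesin loader (-0.66, corrected -0.19), and PDS5A (-0.54, corrected -0.21) fell, STAG2 (-0.55) had a corrected value of -0.14 (adjusted p = 0.0683), and CDCA5, which encodes the cohesion protector sororin, rose (0.67, corrected 0.37). Of 8 condensin genes 3 rose and 1 fell (median 0.071; corrected 5 and 1). SMC2 fell (-0.60, corrected -0.21), NCAPH (0.37, corrected 0.35) and NCAPD2 (0.21, corrected 0.18) rose, and the rise of NCAPH2 (0.33) ended with the correction (-0.16, adjusted p = 0.272).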

How the data were processed

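The RNA of 6 SK-MES-1 samples was isolated by Trizol and sequenced from NEBNext Ultra libraries, per the labels' protocols. The submitters' processing notes list STAR and GRCh38 (hg38). No source used here names the counting program or tells whether it used strand. Per the file headers, the table of 15761 genes holds the authors' read counts, FPKM, log2 fold changes and p-values. The signal deposited beside them was read as the count divided by 1 factor per library, which the headers do not state. Counts were tested here and FPKM was used for levels.

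edgeR 4.0.16 in R 4.3.3 was run with filterByExpr, TMM factors, a robust quasi-likelihood fit, group as the only term and Benjamini-Hochberg adjustment over 12449 genes (threshold 0.05). Alternatives were RLE factors, library totals, other filters, DESeq2 1.42.0, limma-voom (limma 3.58.1), a threshold of 0.01, a replicate block, each library left out, and a GC and length correction (loess trend, span 0.3, as an offset) with GENCODE 29 transcripts. Scripts were tested on simulated counts. Libraries of a group differed beyond sampling noise, so none was treated as a repeat deposit of another, which does not show that the cultures were independent.

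The members, gene lists and corrections were chosen with earlier results of these data known. Per-library values are given for up to 2 called members per role and direction with the largest change and for the 6 members with the largest shift among those whose call or sign depends on the correction; those of other members were chosen after their values were seen. Of other lists, the 4 genes with the smallest adjusted p are named.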

Additional observations from a re-analysis of the deposited data

How the results depend on the processing

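The count of mitosis genes called higher stayed within 1.5 times 19 under every alternative run, and the count called lower did not. It was 4 with library totals, 4 at a threshold of 0.01, 3 with the correction for GC and length, 4 with the correction and the replicate block, and 3 to 8 with 1 library left out (4 and 3 without exosome libraries 1 and 2). With 1 library left out, 15 to 18 members were higher, and over all genes 2503 to 3234 were higher, 2608 to 3375 lower and 5121 to 6609 called. The median log2 fold change of members was 0.25 with library totals, 0.24 corrected, 0.25 corrected with the block, 0.14 to 0.20 with 1 library left out, and 0.14 without control 3 and exosome 3, an alternative added after seeing the data. Corrected, 2148 genes were lower in place of 3244. With library totals, 3811 genes were higher and 2495 lower. With the correction, and then with the correction and block, signs turned for CDC25B (-0.0634, -0.0642), BUB1 (0.161, 0.162), CENPE (0.149, 0.151), CENPF (0.244, 0.246), ECT2 (0.224, 0.225), DLGAP5 (0.227, 0.227), HMMR (0.0601, 0.0609), ASPM (0.277, 0.276), TOP2A (0.216, 0.216) and CENPM (-0.312, -0.301). They also turned for PLK4 (0.12, 0.122), CENPK (0.143, 0.141), TPX2 (0.0314, 0.0294) and CDC25C (-0.0231, -0.0268), which were called in neither. With library totals BUB1 (0.0646), CENPK (0.0533), DLGAP5 (0.0726) and TPX2 (0.0788) turned, none of them called. TPX2, at -0.0019, also turned with RLE factors (0.0046), no filter (0.0125), the 1 CPM filter (0.000131) and DESeq2 (0.0044), and DLGAP5 with no filter (0.0058). Without control 3 and exosome 3, CENPK (0.0102) and NUSAP1 (0.0154) turned. With 1 library left out, values without a call crossed 0 for CDC25C (-0.0412 to 0.18), TPX2 (-0.069 to 0.0575), BUB1 (-0.0363 to 0.0463), CENPK (-0.124 to 0.0486) and DLGAP5 (-0.0666 to 0.0309). Shared replicate numbers are not said to pair the cultures. Deviations of same-numbered libraries correlated at 0.0664, 0.103 and 0.206, for replicates 1, 2 and 3. Exosome 1 with control 2 (0.0659) and exosome 2 with control 1 (0.0623) came close to the first of these. Every library correlated best with its own number, but libraries 1 and 2 were hardly told apart, so this is at most a weak hint. The replicate block gave 19 members higher and 8 lower, the gene gained being TOP2A (-0.14, adjusted p = 0.0306). SPC25, PRC1 and NUSAP1 had too few reads to compare, for a reason that was not tested, and a count of 0 allows up to 0.225 to 0.264 CPM, for counting error only.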
